A study of Bos taurus with 6 samples.

Results

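The 4 nectins and the related receptor PVR were followed in bovine mammary epithelial cells with and without a disrupted KLF6 gene. The 5 genes were taken by symbol (PVR, NECTIN1, NECTIN2, NECTIN3 and NECTIN4) from a count table of 28200 rows, and each symbol stood on 1 row. They had been chosen with their difference between the genotypes known, so their values are given as a description, with no test. The KLF6 knockout group was 3 RNA-seq libraries of Holstein primary mammary epithelial cells in which CRISPR/Cas9 had disrupted KLF6, which encodes a zinc-finger transcription factor, and the wild-type group was 3 libraries of such cells with the gene intact. Per the labels, the cells were obtained from mammary tissue by tissue culture and enzyme digestion. The labels name neither the number of animals nor whether a library came from its own culture or edited clone. The p-values given for other genes rest on the spread among these 6 libraries alone, which may be technical, and a feature of 1 edited population cannot be told apart from the knockout.

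Nectins are immunoglobulin-type adhesion molecules of the cell surface that join neighbouring cells without calcium. Their short tails bind afadin, which ties them to actin, and they bring cadherins and catenins to the contact to build adherens junctions. PVR, also called nectin-like molecule 5, binds nectin-3 on the neighbouring cell but not afadin, and it is best known, from human and mouse cells, for faster movement and growth of cells and for its high level in many carcinomas. PVR and several nectins are also ligands of the lymphocyte receptors CD226, TIGIT and CD96. The roles given here were worked out mostly in human and mouse cells.

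Levels are given as CPM, counts per 1e+06 counts of the tested genes after TMM scaling of the libraries, and levels of different genes are set against each other only per kilobase of gene length (RPKM, the CPM divided by that length). Total counts per library ran from 17512892 to 18724879. KLF6 was read at 224, 230 and 217 CPM in the knockout libraries, against 503, 496 and 558 CPM in the wild-type libraries, so the groups did not overlap and KLF6 RNA remained in the knockout. A count per gene cannot say where along the transcript the reads lie. Wild-type replicate 3 stood apart, since its differences from wild-type replicates 1 and 2 had 9.07 and 9.22 times the variance that counting gives, where every other pair of like genotype had 2.27 to 2.96 times. EPCAM, an epithelial adhesion molecule, averaged 167 ± 5.35 CPM in knockout libraries and 165 ± 10.6 CPM in wild-type libraries (SD, n = 3 each). The 9 luminal markers, EPCAM among them, summed to 4107 to 4285 CPM per knockout library, against 10934 to 12267 CPM per wild-type library, with 1 of 9 higher and 5 lower by test. KRT8, KRT18, KRT19, MUC1 and ELF3 were the lower ones, and CD24 was higher. KRT8 averaged 2450 CPM in knockout libraries and 7564 CPM in wild-type libraries. For each marker list, the share over all tested genes was 37.1% called higher and 37.6% called lower (edgeR's quasi-likelihood test, adjusted p under 0.05). The 8 basal markers summed to 3345 to 3441 CPM in knockout libraries and 6126 to 6201 CPM in wild-type libraries, with 3 higher and 5 lower. KRT14, TAGLN and CDH3 were the higher ones, and KRT5, KRT15, TP63, ACTA2 and MYH11 were lower. The lower sum rested mainly on KRT5, with a knockout mean of 2018 CPM against 4679 CPM, and KRT15, with 1.99 against 953 CPM. TAGLN went the other way, with a knockout mean of 578 CPM against 6.31 CPM, as did KRT14, with 515 against 304 CPM. The 8 fibroblast markers summed to 240 to 253 CPM in knockout libraries, against 1039 to 1236 CPM in wild type (1 higher and 3 lower of 5 tested), and the 6 endothelial markers to 30.8 to 32.6 CPM in knockout libraries, against 4.50 to 5.79 CPM in wild-type libraries (1 higher and 2 lower of 3 tested, with KDR and CLDN5 at 0). Single genes carried the endothelial and fibroblast sums: PECAM1 averaged 31.3 CPM in knockout cells and 0.219 CPM in wild-type cells while VWF and TEK fell, and DCN averaged 229 CPM in knockout cells and 1134 CPM in wild-type cells while COL1A2 rose. The 8 leukocyte markers summed to 5.05 to 5.71 CPM in knockout libraries and 4.29 to 4.97 CPM in wild-type libraries (1 higher and 0 lower of 2 tested), with PTPRC and LYZ at 0 in all libraries. In bulk RNA, fewer cells of a type and less RNA per cell cannot be told apart, and the part of these marker differences in the values below was not tested.

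PVR, NECTIN2 and NECTIN3 were higher in the knockout libraries, and NECTIN1 and NECTIN4 were lower. The difference was widest for PVR, at 5.27-fold higher, and narrowest for NECTIN1, at 1.30-fold lower. All 5 genes passed the filter on low counts, and for all 5 the 3 knockout libraries lay outside the range of the 3 wild-type libraries. Such a separation was found for 76.2% of the tested genes. By edgeR's quasi-likelihood test at an adjusted p of 0.05, 3 of the 5 were called higher and 2 lower, where 37.1% of all tested genes were called higher and 37.6% lower, 74.6% in all. The contrast had chosen the genes, so nothing is read from these counts. The authors' deposited table lists all 5, with log2 fold changes of 2.41 for PVR, 0.84 for NECTIN2, 1.69 for NECTIN3, -0.37 for NECTIN1 and -1.63 for NECTIN4.

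**Figure D1:**
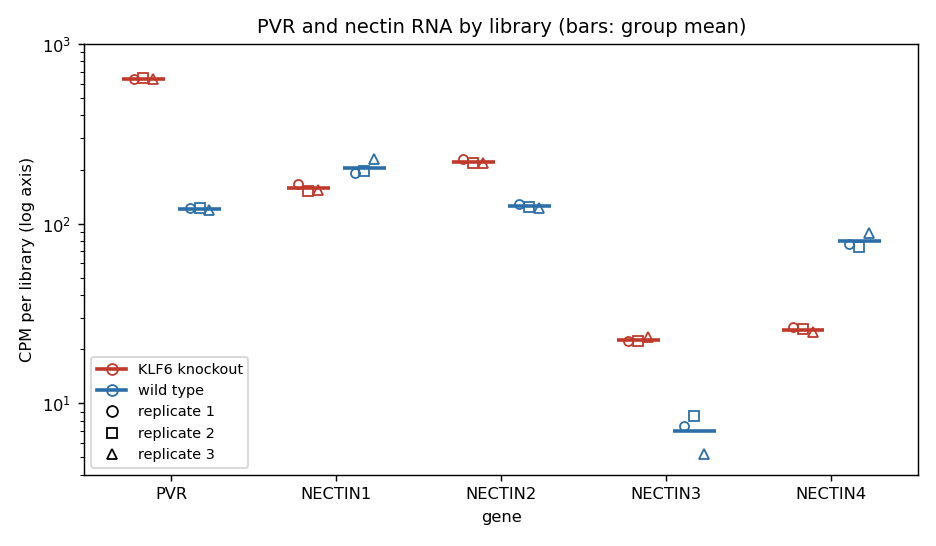
RNA level of PVR and the 4 nectins in each library, in CPM on a log axis, with knockout to the left of wild type for each gene, 1 symbol per replicate and a bar at the group mean. PVR stands at 635 to 646 CPM in the knockout libraries and at 119 to 123 CPM in the wild-type libraries, and the wild-type points of NECTIN3 are the most widely spread.

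PVR (ENSBTAG00000051298), the nectin-like receptor that binds nectin-3, had 635, 646 and 637 CPM in the knockout libraries, against 122, 123 and 119 CPM in the wild-type libraries. The lowest knockout library was thus far above the highest wild-type library, and every pair of a knockout and a wild-type library gave a ratio between 5.18 and 5.42. The group means were 640 ± 5.81 CPM in knockout cells and 121 ± 1.77 CPM in wild-type cells (SD, n = 3 each), a log2 fold change of 2.40. PVR had the tightest replicates of the 5 genes, with a coefficient of variation of 0.909% in knockout and 1.46% in wild type, where counting alone gives 0.934% in knockout and 2.13% in wild type. Its counts summed to 34383 over the knockout libraries and 6630 over the wild-type libraries. In the order of log2 fold changes over all tested genes PVR lay at percentile 96.3.

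NECTIN2 (ENSBTAG00000015318), which pairs with nectin-3 and is a ligand of CD226 and PVRIG, had 229, 216 and 218 CPM in the knockout libraries, against 128, 125 and 122 CPM in the wild-type libraries. Its means were 221 ± 7.12 CPM in knockout cells and 125 ± 3.17 CPM in wild-type cells (SD, n = 3 each), 1.77-fold higher in knockout, with a log2 fold change of 0.82. Single pairs of libraries gave ratios from 1.69 to 1.88. Knockout replicate 1 was the highest library of its group for NECTIN1, NECTIN2 and NECTIN4.

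NECTIN3 (ENSBTAG00000013769), the partner of nectin-1, nectin-2 and PVR across the contact, had 22.1, 22.3 and 23.2 CPM in the knockout libraries, against 7.45, 8.47 and 5.25 CPM in the wild-type libraries. It was the least read of the 5 in wild type, with 132, 158 and 96 reads, against 385, 411 and 417 reads in the knockout libraries. The means were 22.6 ± 0.603 CPM in knockout cells and 7.05 ± 1.65 CPM in wild-type cells (SD, n = 3 each), 3.20-fold higher in knockout, with a log2 fold change of 1.68. The wild-type coefficient of variation of 23.3% was above the 8.82% that counting gives, and wild-type replicate 3 was 25.6% below its group mean. Without that library the log2 fold change was 1.5, and leaving out any 1 library kept it between 1.5 and 1.83.

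NECTIN1 (ENSBTAG00000015939), which binds nectin-3 and nectin-4 and is an entry receptor of herpes simplex virus in human cells, had 167, 151 and 154 CPM in the knockout libraries, against 191, 196 and 228 CPM in the wild-type libraries. The groups did not overlap, but the highest knockout and the lowest wild-type library differed by only 1.14-fold, while the widest pair differed by 1.51-fold. The means were 157 ± 8.23 CPM in knockout cells and 205 ± 20.3 CPM in wild-type cells (SD, n = 3 each), with a log2 fold change of -0.38. Wild-type replicate 3 lay 11.3% above its group mean, and without it the log2 fold change was -0.30.

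NECTIN4 (ENSBTAG00000017877), which binds nectin-1 and is known from human breast and bladder carcinomas, had 26.5, 25.8 and 24.9 CPM in the knockout libraries, against 77.3, 74.4 and 88.7 CPM in the wild-type libraries. Every wild-type library was at least 2.81 times the level of every knockout library. The means were 25.7 ± 0.805 CPM in knockout cells and 80.1 ± 7.57 CPM in wild-type cells (SD, n = 3 each), 3.12-fold lower in knockout, with a log2 fold change of -1.64. Wild-type replicate 3 was again the highest, 10.7% above its group mean, and without it the log2 fold change was -1.56. In the order of log2 fold changes over all tested genes NECTIN4 lay at percentile 4.99.

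The order of the 5 genes by level differed between the genotypes. Per kilobase of the gene length in the count table, the knockout order was PVR (168 ± 1.53 RPKM, SD, n = 3), NECTIN2 (60.4 ± 1.95), NECTIN1 (29.6 ± 1.55), NECTIN3 (10.1 ± 0.270) and NECTIN4 (7.26 ± 0.227). In no neighbouring pair of this order did the libraries overlap. In wild type the order was NECTIN1 (38.6 ± 3.82 RPKM, SD, n = 3), NECTIN2 (34.1 ± 0.868), PVR (31.8 ± 0.464), NECTIN4 (22.6 ± 2.14) and NECTIN3 (3.16 ± 0.738). The first 3 of these lay close together, with NECTIN1 1.13 times NECTIN2 and NECTIN2 1.07 times PVR. NECTIN1 at its lowest, 35.9, was just above NECTIN2 at its highest, 35.0, so the pair stood apart by about the spread of NECTIN1. Levels per length rest on 1 length per gene and do not account for isoforms. Among all tested genes PVR stood at percentile 96.2 of the level per length in knockout and 80.3 in wild type, and NECTIN3 at 53.8 in knockout and 27.2 in wild type, whereas NECTIN4 stood at percentile 46.0 in knockout and 73.1 in wild type.

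Summed per length, PVR and the 4 nectins came to 275 ± 2.59 RPKM in knockout and 130 ± 4.03 in wild type (SD, n = 3 each), 2.11-fold higher in knockout. Most of that was PVR, which made up 61.0 ± 0.943% of the sum in knockout and 24.4 ± 1.08% in wild type. The 4 nectins without PVR summed to 111, 105 and 106 RPKM in the knockout libraries, against 96.1, 95.8 and 104 in the wild-type libraries. Their sum was thus 1.09-fold higher in knockout while their make-up differed. NECTIN2 was the largest nectin in knockout, with 60.4 of the 107 RPKM of the 4 nectins, against 34.1 of 98.5 RPKM in wild type. Shares of the 5-gene sum also reflect the higher PVR level in knockout. Of that sum NECTIN2 held 22.0 ± 0.517% in knockout and 26.2 ± 1.39% in wild type. NECTIN1 held 10.8 ± 0.471% in knockout and 29.6 ± 2.00% in wild type, and NECTIN4 held 2.64 ± 0.0604% in knockout and 17.3 ± 1.10% in wild type. NECTIN3 remained a small part of the 5-gene sum, at 3.67 ± 0.129% in knockout and 2.44 ± 0.629% in wild type. Its level was 10.1 RPKM in knockout and 3.16 RPKM in wild type.

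**Figure D2:**
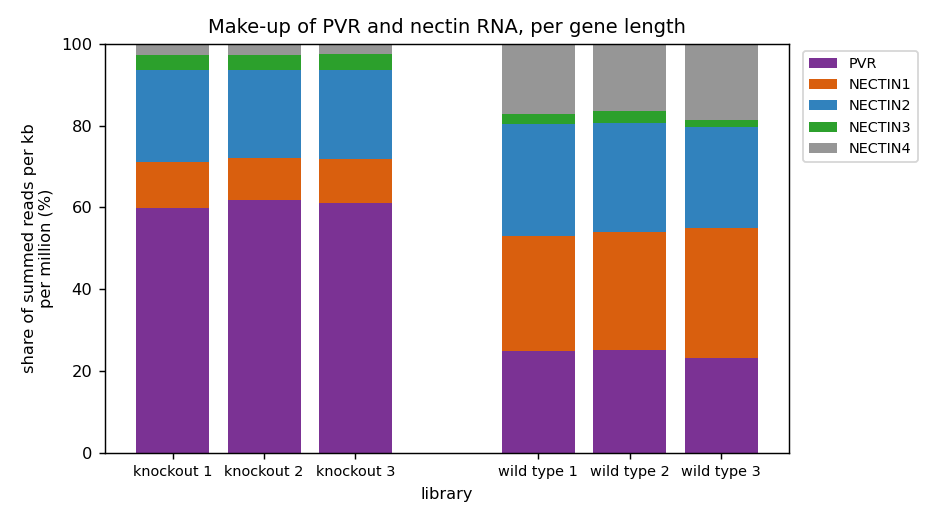
Share of each gene in the summed level per gene length of PVR and the 4 nectins, in percent, 1 bar per library with the knockout libraries to the left. PVR makes up 59.9% to 61.8% of the sum in knockout libraries and 23.2% to 25.2% in wild-type libraries, and NECTIN4 makes up 2.57% to 2.69% in knockout and 16.4% to 18.6% in wild type.

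The 5 genes lie on 4 chromosomes in the coordinates of the count table, for which the sources used here name no build. PVR spans 52421184 to 52440074 and NECTIN2 spans 52582085 to 52615556 on chromosome 18, both on the plus strand and 142010 bases apart. NECTIN1 spans 30211169 to 30282341 on the minus strand of chromosome 15, NECTIN3 spans 55893616 to 56089185 on the plus strand of chromosome 1, and NECTIN4 spans 8403138 to 8419412 on the plus strand of chromosome 3. All 5 rows are marked as protein coding and none overlaps another row, so no reads of an overlapping or antisense locus of this table enter their counts.

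Chromosome medians were shifted between the genotypes to different degrees, and no test set shifted chromosomes apart from the rest. The median log2 fold change was 0.32 over the 771 tested genes of chromosome 18, -0.39 over 739 on chromosome 3, -0.19 over 391 on chromosome 15 and -0.11 over 537 on chromosome 1, where the median over all tested genes was -0.01. Each member differed in the direction of its chromosome's median except NECTIN3. With each chromosome's median taken out, the log2 fold change was 2.08 for PVR, 0.51 for NECTIN2, 1.78 for NECTIN3, -0.19 for NECTIN1 and -1.25 for NECTIN4, and the part of these shifts in the members' values was not tested. PVR ranked at percentile 96.4 of its chromosome's genes and NECTIN2 at 77.0, while NECTIN3 ranked at 93.5, NECTIN1 at 37.1 and NECTIN4 at 7.04 on theirs.

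The genes around PVR and NECTIN2 went both ways. Of 39 other tested genes from 500 kb before PVR to 500 kb after NECTIN2, 18 rose and 13 fell by the edgeR test. Over all tested genes 37.1% rose and 37.6% fell, and of the 771 on chromosome 18, 419 rose and 163 fell. The 39 genes had a median log2 fold change of 0.17 and a range of -3.80 to 3.79. All tested genes from BCAM to GEMIN7, NECTIN2 among them, were called higher. A single one of them had a larger log2 fold change than PVR, and 8 had a larger one than NECTIN2. The nearest tested gene after PVR, CEACAM19, which also belongs to the immunoglobulin superfamily, fell to 1.29 ± 0.485 CPM in knockout, against 18.0 ± 1.91 CPM in wild type (SD, n = 3 each, log2 fold change -3.80, edgeR adjusted p = 1.63e-12). The nearest before it, ZNF180, did not pass the test (log2 fold change -0.29, edgeR adjusted p = 0.291). NECTIN2 had BCAM, an immunoglobulin-type receptor of laminin, 7736 bases before it, at 815 ± 27.0 CPM in knockout cells and 221 ± 14.6 CPM in wild-type cells (log2 fold change 1.88, edgeR adjusted p = 6.35e-16). TOMM40, a subunit of the protein import pore of mitochondria, lay 3220 bases after it and rose by 0.79 on the log2 scale (edgeR adjusted p = 1.73e-09). The tested genes nearest to NECTIN4 were ARHGAP30, 778 bases away, which fell (-1.42), and PFDN2, 14275 bases away, which rose (0.18). Those nearest to NECTIN1 lay farther off, with TRIM29 at 402505 bases, which fell (-1.34), and USP2 at 252346 bases, which did not pass the test (-0.26). Those nearest to NECTIN3 were PLCXD2 at 336292 bases, which rose (0.96), and a row named RPL10 at 1665937 bases, whose reads may be shared with near-identical copies and which fell (-0.26).

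**Figure D3:**
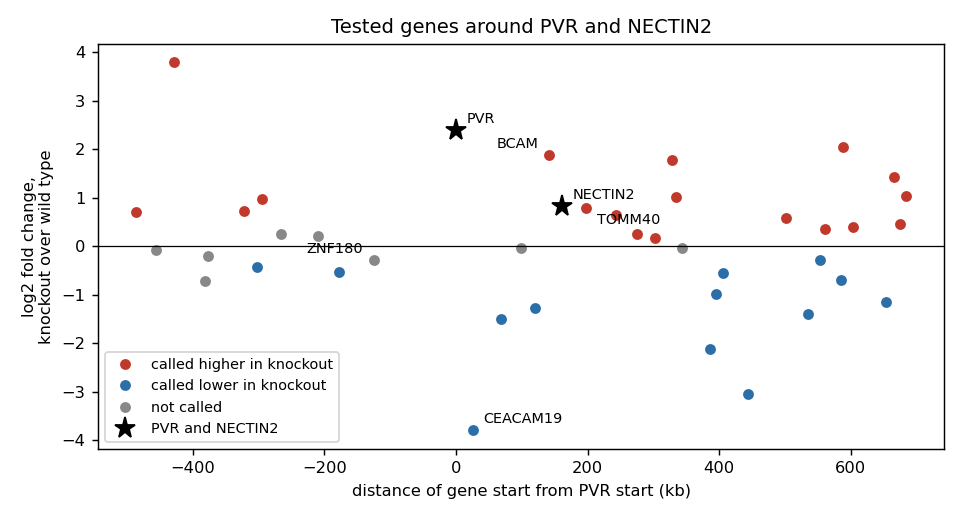
Log2 fold change (knockout over wild type) for each tested gene around PVR and NECTIN2, against the distance of its start from the start of PVR in kb, coloured by the edgeR call, with both members as stars. Genes called higher and genes called lower both occur in the region, partly in runs. All tested genes from BCAM to GEMIN7, NECTIN2 among them, are called higher. CEACAM19 stands at -3.80 next to PVR and BCAM at 1.88 next to NECTIN2.

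Genes that bind or act with nectins or nectin-like molecules were taken from 7 lists, which hold 50 genes apart from the 5 members. Of 38 tested, 12 rose (31.6%) and 22 fell (57.9%) by edgeR's quasi-likelihood test with Benjamini-Hochberg adjustment over all genes, where 37.1% of all tested genes rose and 37.6% fell. The median log2 fold change was -0.28, against -0.01 over all tested genes. With chromosome medians taken out, 9 rose and 19 fell.

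Afadin and the adaptors of the nectin tail were mostly lower. Of 5 tested, 0 rose and 4 fell, with a median log2 fold change of -0.32, and the polarity protein gene PARD3, whose product binds nectin-1 and nectin-3, did not pass the test (-0.03 ± 0.05, SE). AFDN, which encodes afadin itself, averaged 64.5 ± 2.38 CPM in knockout cells and 80.5 ± 6.00 CPM in wild-type cells (SD, n = 3 each, log2 fold change -0.32 ± 0.06, edgeR adjusted p = 0.000111), and its log2 fold change was -0.48 with chromosome medians taken out. LMO7, which links afadin to alpha-actinin, fell to 121 ± 2.57 CPM in knockout, against 324 ± 13.1 CPM in wild type (log2 fold change -1.42 ± 0.05, edgeR adjusted p = 7.37e-15). SSX2IP, the gene of an afadin and alpha-actinin binding protein, was called lower at -0.29, but had a log2 fold change of 0.10 with chromosome medians taken out.

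Classical cadherins and catenins were divided, with 4 that rose and 5 that fell among 10 tested (median log2 fold change -0.12). With chromosome medians taken out, ACTN4, one of the 4, turned to -0.0302 and VCL, one of the 5, to 0.0595, and neither passed the test. CDH3, the P-cadherin of basal cells, rose to 212 ± 3.97 CPM in knockout, against 76.3 ± 4.44 CPM in wild type (SD, n = 3 each, log2 fold change 1.47 ± 0.05, edgeR adjusted p = 1.5e-14). CTNNA2, an alpha-catenin best known from neurons, rose by 1.04 ± 0.08 on the log2 scale, and ACTN1, an actin cross-linker, by 0.67 ± 0.05. CTNND1, the p120 catenin that holds cadherins at the surface, fell to 321 ± 4.49 CPM in knockout, against 796 ± 5.07 CPM in wild type (log2 fold change -1.31 ± 0.04), and JUP, which encodes plakoglobin, fell by 1.17 ± 0.04 on the log2 scale. CDH1, the E-cadherin that nectins recruit, stood at 290 ± 5.51 CPM in knockout cells and 306 ± 6.26 CPM in wild-type cells and did not pass the test (log2 fold change -0.08 ± 0.04, edgeR adjusted p = 0.110). It was called lower without wild-type replicate 3 (-0.09, edgeR adjusted p = 0.0289), by library size only (-0.13, adjusted p = 0.0113) and with chromosome medians taken out (-0.40, adjusted p = 1.48e-07). CDH2, the N-cadherin gene, had 0 reads in all 6 libraries.

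Surface partners were mostly lower. Of 6 tested receptors that have been found beside nectins or nectin-like molecules on the same cell, 1 rose and 5 fell (median log2 fold change -0.84). ITGB3, the beta subunit of the vitronectin-binding integrin that cooperates with nectins and PVR, fell to 1.45 ± 0.318 CPM in knockout, against 178 ± 9.36 CPM in wild type (SD, n = 3 each, log2 fold change -6.93 ± 0.10, edgeR adjusted p = 6.51e-20). Its alpha partner ITGAV was the one that rose, at 354 ± 4.22 CPM in knockout cells and 242 ± 20.1 CPM in wild-type cells (log2 fold change 0.55 ± 0.05). ERBB3 and ERBB2, receptor kinases of the EGF receptor family, fell by 2.72 ± 0.08 and 1.09 ± 0.05 on the log2 scale, and the laminin-binding integrin gene ITGA6 by 0.59 ± 0.04. VTN, which encodes vitronectin, a matrix ligand of PVR, and PRLR had 0 reads in all libraries, and PDGFRB and FGFR1 had 6 and 3 reads in all, none of them in wild type.

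Of the nectin-like genes besides PVR, CADM1 rose and CADM4 fell, while CADM2 and CADM3 had at most 1 read in all and were not tested. CADM1 averaged 82.0 ± 2.09 CPM in knockout cells and 48.0 ± 0.481 CPM in wild-type cells (SD, n = 3 each, log2 fold change 0.77 ± 0.05, edgeR adjusted p = 3.27e-10), and CADM4 averaged 23.4 ± 0.872 CPM in knockout libraries, against 34.8 ± 7.93 CPM in wild-type libraries (log2 fold change -0.57 ± 0.14). Wild-type replicate 3 had 43.9 CPM of CADM4, above the 31.2 and 29.3 CPM of the other wild-type libraries, and the log2 fold change was -0.37 without it and -0.89 with chromosome medians taken out. Among 11 genes that carry the nectin signal to small GTPases, 5 rose and 4 fell, with a median of 0.00. Of these, RAP1B, one of the 5, lost its call without knockout replicate 2 (0.12, edgeR adjusted p = 0.0666), by library size only (0.10, adjusted p = 0.0647) and with chromosome medians taken out (0.05, adjusted p = 0.366), and RAP1A, one of the 4, stood at 0.0362 with chromosome medians taken out (adjusted p = 0.548). All but 1 of these differences were under 1.5-fold, and TIAM1, an activator of Rac, was the exception with a log2 fold change of -1.46 ± 0.14. CDC42 and RAC1, the GTPases at the end of that path, rose by 0.38 ± 0.05 and 0.21 ± 0.05 on the log2 scale, and RAC1 stood at 0.14 with chromosome medians taken out.

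Of the 4 genes for proteases that release ectodomains and their inhibitor, 3 fell and 1 rose. ADAM10, which cleaves nectin-1, and ADAM17, which cleaves nectin-4, had log2 fold changes of -0.26 ± 0.04 and -0.38 ± 0.05. With its chromosome's median taken out, ADAM10 stood at 0.03 and lost its call (edgeR adjusted p = 0.606). BACE1, an aspartyl protease, fell by 1.16 ± 0.13 on the log2 scale, and TIMP3, an inhibitor of ADAM17, was called higher at 0.14 ± 0.05, a call that was lost without knockout replicate 2 (edgeR adjusted p = 0.0598), by library size only (adjusted p = 0.0905) and with chromosome medians taken out (adjusted p = 0.440).

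The listed lymphocyte receptors of nectins and nectin-like molecules were at or near the limit of detection. CD226, PVRIG and CRTAM had 0 reads in all libraries, which allows up to 0.161 to 0.172 CPM per library, counting error only. TIGIT had 1 read over the knockout libraries and 10 over the wild-type libraries, and CD96 had 22 over the knockout libraries and 11 over the wild-type libraries. None of the 5 was tested.

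**Figure D4:**
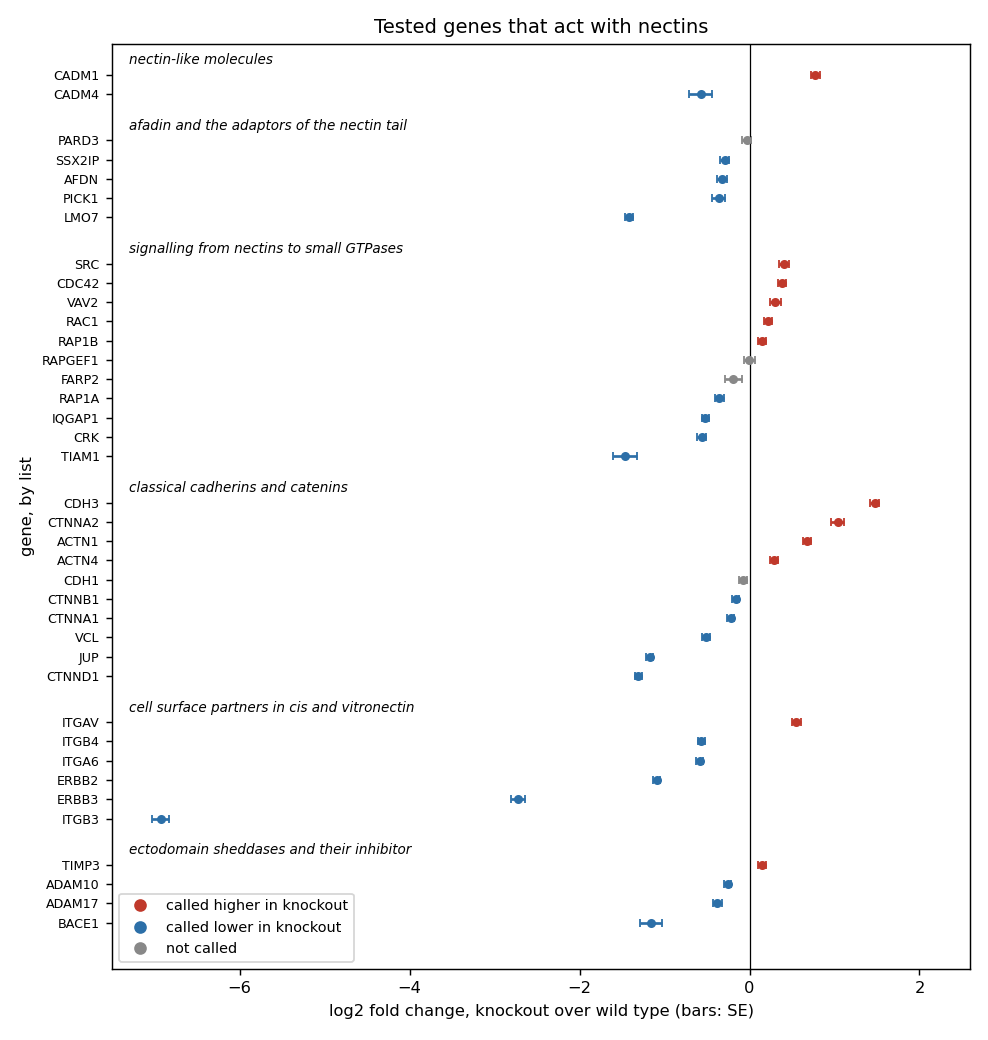
Log2 fold change (knockout over wild type) for each tested gene that acts with nectins, grouped by list, with SE bars and colours for the edgeR call. The adaptors of the nectin tail lie at or left of 0, the cadherin and catenin genes fall on both sides, and ITGB3 at -6.93 lies farthest from 0.

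Other genes followed the members closely over the 6 libraries. Likeness was measured as the root mean square difference of log2 CPM after each gene was centred on its own mean, and it mostly reflects an equal difference between the genotypes. Closest to PVR were the retinaldehyde dehydrogenase gene ALDH1A1 (0.03), the receptor gene CD40 (0.04) and the actin-binding caldesmon gene CALD1 (0.04), with log2 fold changes of 2.39, 2.39 and 2.35. WSB2, MAN1A1 and SUV39H1 were closest to NECTIN2 (each 0.03), and PEX5, SIPA1L1 and SAPCD1 to NECTIN1 (0.02, 0.03 and 0.03). MINK1, HSPA1A and TSTD1 were closest to NECTIN4 (0.03, 0.04 and 0.05), and TSTD1 shares chromosome 3 with it, while HSPA1A has a near-identical copy that may share its reads. NECTIN3 had no gene as close, with SLC45A3 at 0.08, NRTN at 0.13 and GPBAR1 at 0.13. All of these were read little in wild type, at means of 0.658, 0.474 and 0.238 CPM, so their likeness rests on few reads. Their log2 fold changes were 1.93, 1.95 and 2.10.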

How the data were processed

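The authors deposited unscaled counts of each gene in 6 libraries, and a second table with a normalized signal, log2 fold changes and p-values of their comparison. The submitters' processing notes name HISAT2 (2.0.5) and featureCounts (1.5.0-p3). Build, annotation and strand setting: not given in the sources used here. In that second table the deposited signal equals the counts divided by 1 factor per library, and only the log2 fold changes of that table are printed. The RefSeq gene table was not used.

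The counts went into edgeR 4.0.16 under R 4.3.3, with TMM scaling, filterByExpr with a minimum count of 10 and total of 15, robust quasi-likelihood fit, Benjamini-Hochberg adjustment at 0.05 over 13390 tested genes. The SE of a log2 fold change was worked back from its quasi-likelihood F. On simulated counts the fit recovered 189 of 200 changed genes, with 12 false calls. That simulation gave all genes 1 common dispersion and held no deviating library. It changed 200 genes, whereas 74.6% of the tested genes were called in these data. It therefore cannot say how the fit behaves here. DESeq2 1.42.0 and voom of limma 3.58.1 were alternatives.

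Members and lists were chosen with earlier results of these data known. Named are the members, list genes past the test with at least 1.5-fold change (up to 4 per direction and list), AFDN, CDH1, TIGIT, CD226 and CD96, the nearest tested neighbours and the 3 most similar genes. PARD3, SSX2IP, ITGAV, CADM4, CDC42, RAC1, ADAM10, ADAM17, TIMP3, RAP1A, RAP1B, ACTN4, VCL, GEMIN7, single markers and genes at or near 0 were named after their values were seen. A further adaptor gene was taken off the lists, enters no count and is not reported here.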

Additional observations from a re-analysis of the deposited data

How the results depend on the processing

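All 5 log2 fold changes of the members kept their sign under the 14 alternatives run. With chromosome medians taken out they were 2.08 for PVR, 0.51 for NECTIN2, -0.19 for NECTIN1 and -1.25 for NECTIN4, and with library size only 2.35 for PVR and 0.77 for NECTIN2, while each of the other alternatives moved a member by less than the spread between replicates. With 1 library left out, PVR ran from 2.39 to 2.41, NECTIN2 from 0.80 to 0.85, NECTIN3 from 1.5 to 1.83, NECTIN1 from -0.43 to -0.30 and NECTIN4 from -1.69 to -1.56. Counts of calls stayed within 1.5-fold of those reported, at 4622 to 5425 higher and 4625 to 5354 lower. By library size only, 4622 rose and 5354 fell. Without length, NECTIN4 stood at place 4 and NECTIN3 at place 5 of the knockout order. Summing over rows of a symbol changed nothing, as each symbol has 1 row.

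Of 532 values of the 38 tested pathway genes under an alternative, 511 kept direction and call. Signs turned with chromosome medians taken out for ACTN4 (-0.0302), ADAM10 (0.0256), FARP2 (0.203), RAP1A (0.0362), SSX2IP (0.10), VCL (0.0595) and RAPGEF1 (0.0323). RAPGEF1, near 0 throughout, also turned with RLE size factors (0.0109), by DESeq2 (0.0109), without knockout replicate 3 and without wild-type replicate 3, and ran from -0.0198 to 0.0292 with 1 library left out. The cause was not tested.

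The replicate numbers gave no pairing: deviations of same-numbered libraries correlated at -0.04, 0.07 and -0.02. With the replicate block, 4938 genes rose and 4956 fell, and the members' log2 fold changes were 2.40 for PVR, 0.82 for NECTIN2, 1.68 for NECTIN3, -0.38 for NECTIN1 and -1.64 for NECTIN4. Depth limits the low genes most: NECTIN3 had 96 to 158 reads per wild-type library.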
